A study of Mus musculus with 18 samples.

Results

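Nos2, Arg1, Arg2, Ass1 and Slc7a2, the genes through which activated myeloid cells take up, burn and rebuild arginine, were followed in mouse dendritic cells over 24 h of lipopolysaccharide (LPS). The genes were chosen by name, and a gene was read from the probe sets annotated to it alone, with the brightest on average used and any other kept as a check. Of the 5 genes, 4 had such a probe set (7 probe sets in all), out of 12394 genes on the array that had one. The only probe set of Ass1, 1416239_at, is annotated to Ass1 and to Gm5424, so Ass1 could not be measured by itself and stands outside the counts of members.

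Arginine stands at a fork in these cells. The inducible nitric oxide synthase encoded by Nos2 turns it into nitric oxide and citrulline, while the arginases, the cytosolic Arg1 and the mitochondrial Arg2, split it into urea and ornithine, from which polyamines and proline are made. The transporter CAT2, encoded by Slc7a2, brings cationic amino acids such as arginine into the cell, and argininosuccinate synthase, encoded by Ass1, starts the rebuilding of arginine from citrulline.

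The study asked which transcripts of the LPS response need CD14 and calcium entry, the route to the transcription factor NFAT. Dendritic cells were grown for 7 to 10 days from the bone marrow of C57BL/6 mice aged 6 to 8 weeks, in medium with supernatant of B16 melanoma cells that secrete GM-CSF, and were used when over 90% carried CD11c. Wild type cells received smooth LPS at 1 µg/ml alone, or together with 2 mM of the calcium chelator EGTA, and Cd14-/- cells on the C57BL/6 background received smooth LPS at a concentration that the labels do not state. In each of these 3 conditions 1 array was made without LPS and 1 after 2, 4, 6, 12 and 24 h of it, 18 in all. The arrays without LPS came from cells harvested 24 h after plating, so only the 24 h arrays match them in time in culture, and for the one titled as EGTA the protocol speaks of plating alone.

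Each condition and time is a single array, so the fitted differences between conditions take their error from the scatter over the 5 LPS times, and no label says that arrays came from separate cultures. The p-values therefore measure the spread between these arrays. Cd14 itself lay between 12.49 and 13.28 on the log2 scale on the 12 arrays of wild type and EGTA cells and between 4.28 and 5.84 on the 6 of Cd14-deficient cells, which is the order the labels give. The CD11c gene Itgax stayed between 11.22 and 12.40 on all 18 arrays, although macrophage and granulocyte markers were also bright. RNA quality, scored in the labels by the RNA integrity number, was lowest on the EGTA array of 24 h (8.7) and that of 12 h (8.8), against 9.3 to 10 elsewhere. The unstimulated EGTA array stood apart at its dim end, where its lowest 1% of deposited intensities reached 3.63 against 0.645 to 0.939 on the other 17.

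Levels below are log2(intensity + 16) after quantile normalisation, a scale on which 1 unit is a doubling for bright probe sets and less than the true fold for dim ones. The median gene of an unstimulated wild type array lay at 7.07. A difference was called when its p-value from limma, adjusted over all genes tested by the Benjamini-Hochberg method, was at or under 0.05.

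Averaged over the 5 times and 3 conditions, LPS raised 3 of the 4 measured genes, Nos2, Slc7a2 and Arg2, and lowered Arg1. The same test called 62% of 7056 genes, so a call by itself sets none of the 4 apart. Under LPS, EGTA lowered all 4 genes, where 13.6% of 6929 genes were called, and the loss of Cd14 lowered 2 of 4, Nos2 and Arg1, where 29.7% were called. Set directly against EGTA cells, Cd14-deficient cells had less Arg1 and more Arg2 and Slc7a2, 3 calls of 4 against 31.3% of all genes. All 4 genes passed the filter on low values, Nos2 by lying above the array median on 8 of 18 arrays, Arg1 on 17, and Arg2 and Slc7a2 on 18. For Nos2 these were all LPS arrays, so it entered the LPS test only through the arrays where it was high.

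**Figure D1:**
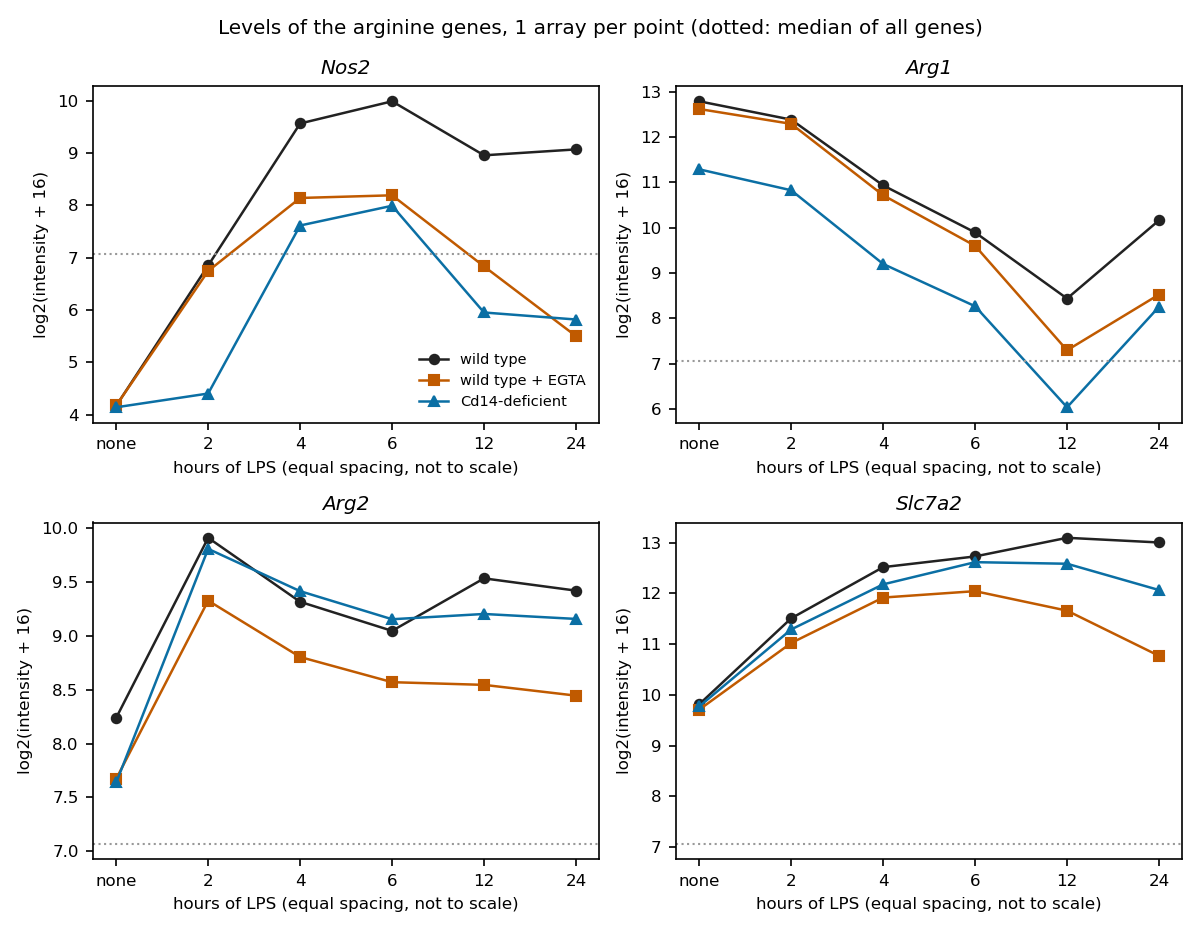
Log2(intensity + 16) of Nos2, Arg1, Arg2 and Slc7a2 (vertical axes, each with its own range) without LPS and at 2, 4, 6, 12 and 24 h of LPS (horizontal axis, evenly spaced) in wild type cells (circles), EGTA cells (squares) and Cd14-deficient cells (triangles), 1 array per point, with the median of all genes dotted. Nos2 peaked at 6 h in all 3 conditions, Arg1 was lowest at 12 h in all 3, and Slc7a2 stayed near its highest level to 24 h in wild type cells while it fell back to 10.77 with EGTA.

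Nos2 (probe set 1420393_at) was at the floor of the array before LPS, with levels of 4.17 in wild type, 4.18 in EGTA and 4.14 in Cd14-deficient cells, which 2.82% to 4.04% of the probe sets of those arrays lay below. After 2, 4, 6, 12 and 24 h of LPS it reached 6.85, 9.56, 9.99, 8.96 and 9.07 in wild type cells. With EGTA it read 6.74, 8.14, 8.19, 6.83 and 5.50. Wild type and EGTA cells were thus side by side at 2 h, and from 4 h on the EGTA level was the lower at each time.

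In Cd14-deficient cells Nos2 read 4.40 at 2 h, close to its level without LPS, and then 7.61, 7.99, 5.95 and 5.82. The synthase transcript was lower than in wild type cells at 5 of 5 times with either change. The mean LPS effect on Nos2 was 3.28 ± 0.43 (SE), with an adjusted p of 9.19e-06. Because the unstimulated level is at the floor, that size depends on the value added before the logarithm, and was 5.61 with 1 and 1.89 with 64 in place of 16.

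Against wild type cells under LPS, Nos2 fell by 1.80 ± 0.36 with EGTA (adjusted p = 0.00591) and by 2.53 ± 0.36 without Cd14 (adjusted p = 0.000282). These sizes also move with the processing. The EGTA difference was -1.97 with 1 added and -1.48 with 64 added, and the Cd14 difference ran from -3.03 to -1.91 over the alternative settings. The EGTA difference ran from -0.10 at 2 h to -3.57 at 24 h, and the Cd14 difference from -1.95 at 4 h to -3.25 at 24 h. Without the EGTA arrays of 12 and 24 h, which have the lowest RNA integrity, the EGTA difference was -1.31 with an adjusted p of 0.0515. The share of that difference that goes with RNA quality was not tested.

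The order of Nos2 was wild type, EGTA, Cd14-deficient, but the last pair was not separated by the test. Cd14-deficient minus EGTA was -0.73, with a 95% interval from -1.49 to 0.04 and an adjusted p of 0.14. That difference was -2.34 at 2 h and 0.32 at 24 h, each between single arrays on which Nos2 lay below the array median. Left without the EGTA 24 h array, the fit gave -1.08 and called it (adjusted p = 0.0216).

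Slc7a2 (1426008_a_at) rose in every condition and at every LPS time. In wild type cells it went from 9.82 to 11.51, 12.52, 12.73, 13.10 and 13.00. In EGTA cells the transporter went from 9.71 to 11.02, 11.92, 12.04, 11.66 and 10.77, and in Cd14-deficient cells from 9.77 to 11.29, 12.18, 12.62, 12.58 and 12.07. The 3 conditions started close together, and from 2 h on the order at all 5 times was wild type, Cd14-deficient, EGTA.

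The mean LPS effect on Slc7a2 was 2.30 ± 0.21 (adjusted p = 1.64e-07). EGTA lowered it by a mean difference of -1.09 ± 0.19 (adjusted p = 0.00304), from -0.49 at 2 h to -2.23 at 24 h, and by -0.69 without the EGTA arrays of 12 and 24 h (adjusted p = 0.00891). For Cd14-deficient cells the difference from wild type was -0.42 ± 0.19, with a 95% interval from -0.84 to -0.01 and an adjusted p of 0.113, and its sign was negative at 5 of 5 times. Cd14-deficient cells kept 0.66 ± 0.19 more of it than EGTA cells (adjusted p = 0.0193).

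Both neighbouring steps in the order of Slc7a2 turn on single arrays or on the probe set. Leaving out the EGTA array of 24 h brought the difference between Cd14-deficient and wild type cells under the threshold (adjusted p = 0.0294) at the same size. The step between Cd14-deficient and EGTA cells was no longer called without the EGTA array of 12 h (0.59, adjusted p = 0.0621), the Cd14-deficient array of 6 h (0.64, adjusted p = 0.0524) or that of 12 h (0.64, adjusted p = 0.0504).

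The other probe sets of the transporter gave the same signs. On 1422648_at the EGTA difference was -0.94 ± 0.17 and the Cd14 difference -0.45 ± 0.17, and on 1450703_at they were -1.40 ± 0.21 and -0.94 ± 0.21. The last of these was called (adjusted p = 0.0061 in a fit over all probe sets), and there the 2 changed conditions were closer, 0.46 apart with an adjusted p of 0.132. On 1450703_at Cd14-deficient cells read 8.88, 9.85, 10.22, 9.70 and 9.03 under LPS, against 9.44, 10.88, 10.94, 10.82 and 10.30 in wild type cells.

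**Figure D2:**
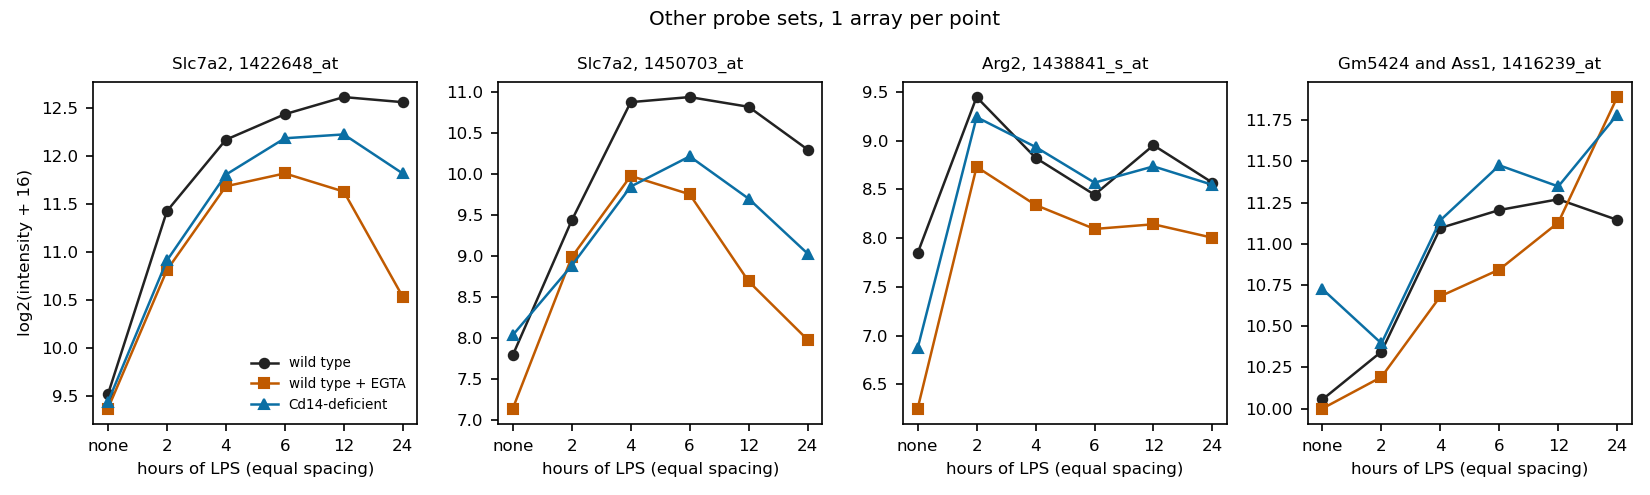
Log2(intensity + 16) by hours of LPS (evenly spaced) on the other probe sets of Slc7a2 and Arg2 and on the probe set shared by Ass1 and Gm5424, with symbols for wild type, EGTA and Cd14-deficient cells as in the plot of the 4 genes, 1 array per point and a separate vertical range in each panel. On 1450703_at Cd14-deficient cells lay as low as EGTA cells at 2 and 4 h, and on the shared probe set the EGTA array of 24 h was the highest at 11.89.

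Arg1 (1419549_at) was bright before LPS and fell through 12 h in every condition. Wild type cells went from 12.78 to 12.38, 10.93, 9.90 and 8.44, and stood at 10.16 at 24 h. EGTA cells went from 12.62 to 12.29, 10.71, 9.60 and 7.30, with 8.53 at 24 h. Cd14-deficient cells began lower, at 11.29, and read 10.82, 9.20, 8.27, 6.04 and 8.26. In deposited intensities, the wild type fall was from 7483 without LPS to 339 at 12 h.

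Each condition thus lost Arg1 to 12 h and had more of it at 24 h than at 12 h. The mean LPS effect was -2.71 ± 0.19 (adjusted p = 8.16e-09), and it was called at 4, 6, 12 and 24 h but not at 2 h, where it was -0.40 with an adjusted p of 0.203. The 24 h arrays, which match the unstimulated ones in time since plating, gave -3.25 ± 0.24. The step from 12 to 24 h, a contrast chosen after its values were seen, was 1.72 ± 0.24 for Arg1 (adjusted p = 0.000397), the only call among the 4 genes where 15.4% of 7056 genes were called. For Nos2 that step was -0.45, for Slc7a2 -0.50 and for Arg2 -0.09.

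The largest difference between conditions for Arg1 was the loss of Cd14. Without Cd14, Arg1 differed from wild type cells by -1.84 ± 0.19 under LPS (adjusted p = 2.53e-05), with values from -1.55 at 2 h to -2.40 at 12 h. The unstimulated arrays differed by -1.50, so the gap was already present without LPS. Cd14-deficient cells were also below EGTA cells, by -1.17 ± 0.19 (adjusted p = 0.000735), and at 5 of 5 times.

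With EGTA, Arg1 differed from wild type by -0.68 ± 0.19 (adjusted p = 0.0349), made up of -0.09, -0.22 and -0.30 at 2, 4 and 6 h and of -1.14 and -1.63 at 12 and 24 h. The call was lost under 14 of 28 alternative settings. Without the EGTA arrays of 12 and 24 h the difference was -0.30 (adjusted p = 0.197), and leaving out the wild type array of 4 (-0.75), 12 (-0.55) or 24 h (-0.55), or the EGTA array of 6 (-0.74), 12 (-0.63) or 24 h (-0.44), each ended it.

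Macrophage markers moved in the same direction as Arg1 between Cd14-deficient and wild type cells. Of 12 listed, 11 were on the array and 10 tested. Under LPS without Cd14, 7 fell and 1 rose, where 12.6% of all genes fell and 17.1% rose. The median of the 10 was -0.58 against 0.04 over all genes. The summed intensity of the list was 20775 to 30111 on the LPS arrays of Cd14-deficient cells, 28496 to 33821 in wild type and 29835 to 34815 in EGTA cells. Without LPS it was 35326, 38670 and 41157. With EGTA, 4 of these 10 markers rose, against 7.4% of all genes, and the other 6 were not called, at a median of 0.21.

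Without Cd14 the change was -1.36 for the complement gene C1qc, -1.64 for the lipoprotein gene Apoe and 1.67 for the scavenger receptor gene Marco. Without LPS, C1qc was level at 12.04 in Cd14-deficient and 12.09 in wild type cells, Apoe was lower at 9.94 against 11.37, and Marco was higher at 7.43 against 5.53. Over all genes, 17.1% rose and 12.6% fell without Cd14, and 7.4% rose and 6.22% fell with EGTA. Of 10 tested granulocyte markers, 5 rose and 2 fell without Cd14, and 1 rose with EGTA. Of 8 tested dendritic cell markers, 4 rose without Cd14 and 1 with EGTA, and the others were not called. Of 4 tested mast cell and basophil markers 2 fell in each of these comparisons, while melanoma and T or NK cell markers lay below the array median on all 18 arrays. The part of any of these cells in the Arg1 levels was not tested, and in bulk RNA fewer cells of a type and less RNA per cell cannot be told apart.

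**Figure D3:**
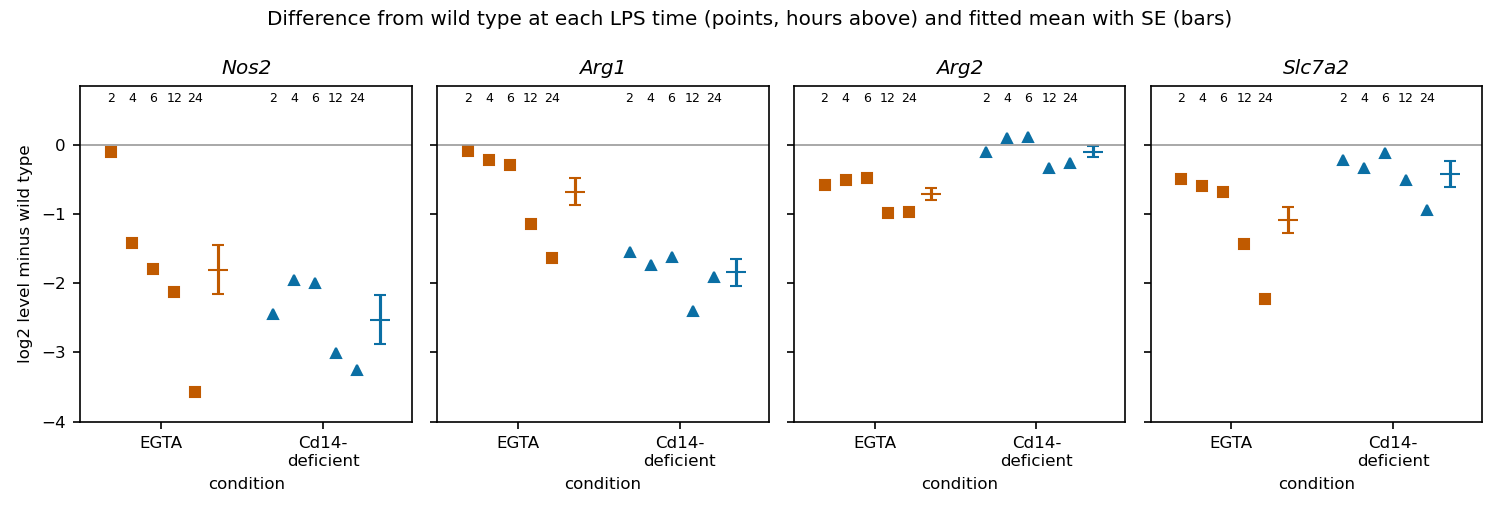
Log2 level minus that of wild type cells at the same LPS time for Nos2, Arg1, Arg2 and Slc7a2, with 1 point per time (hours printed above) for EGTA (squares) and Cd14-deficient cells (triangles), and the fitted mean with its standard error beside them. EGTA points of Nos2, Arg1 and Slc7a2 lay furthest from 0 at 24 h (-3.57, -1.63 and -2.23), and the Cd14-deficient points of Arg2 lay on both sides of 0.

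Arg2 (1418847_at), the mitochondrial arginase, moved the opposite way from Arg1 under LPS and was highest at 2 h in every condition. Wild type cells went from 8.24 to 9.91, 9.32, 9.05, 9.54 and 9.42. EGTA cells went from 7.67 to 9.33, 8.80, 8.57, 8.54 and 8.44, and Cd14-deficient cells from 7.64 to 9.81, 9.42, 9.16, 9.20 and 9.16. The EGTA array was the lowest of the 3 at each LPS time, while wild type and Cd14-deficient arrays crossed.

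The mean LPS effect on Arg2 was 1.33 ± 0.11 (adjusted p = 5.53e-08), and all 15 LPS arrays were above their own unstimulated array. EGTA lowered it by a mean of -0.71 ± 0.08 (adjusted p = 0.000223), and by -0.59 without its 12 and 24 h arrays (adjusted p = 0.00499). Without LPS the difference from wild type was -0.57 on the EGTA array and -0.60 on the Cd14-deficient array, and on the second probe set, 1438841_s_at, it was -1.59 and -0.98. Under LPS the Cd14 difference was -0.10, with a 95% interval from -0.28 to 0.08 and an adjusted p of 0.408, and it was negative at 3 of 5 times.

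Cd14-deficient cells held 0.61 ± 0.08 more Arg2 than EGTA cells (adjusted p = 0.000186), at 5 of 5 times. Under LPS the second probe set gave -0.59 ± 0.07 for EGTA, -0.04 ± 0.07 for Cd14-deficient cells and 1.65 ± 0.14 for LPS. The order of Arg2 under LPS was wild type, Cd14-deficient, EGTA, and the first pair was not separated.

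The probe set shared by Ass1 and Gm5424 rose with LPS by 0.80 ± 0.13 (adjusted p = 9.1e-05 in a fit over 13011 probe sets). It read 10.06 without LPS and 10.35, 11.10, 11.20, 11.27 and 11.14 under it in wild type cells. With EGTA it read 10.00, then 10.19, 10.68, 10.84, 11.13 and 11.89, and in Cd14-deficient cells 10.72, then 10.40, 11.14, 11.48, 11.35 and 11.78. The highest of the 18 was the EGTA array of 24 h, which also had the lowest RNA integrity number (8.7).

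No difference between conditions was called on this probe set. EGTA minus wild type was -0.06 (95% interval from -0.34 to 0.21), Cd14-deficient minus wild type 0.22 (from -0.06 to 0.49), and Cd14-deficient minus EGTA 0.28 (from 0.0035 to 0.56, adjusted p = 0.123). How much of the signal came from either gene was not tested.

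RefSeq's promoter table for build GRCm38.p6 matched 1 of the 5 genes, Ass1, and it also holds Gch1. Gch1 encodes the enzyme that starts the making of tetrahydrobiopterin, the cofactor of nitric oxide synthase, and it rose with LPS in every condition. The 250 bases before the annotated start site of each are shown, 5′ to 3′ on the gene's strand, because both genes serve the nitric oxide branch. Capitals mark matches to the motifs named after them. Ass1 lies at chr2:31470020-31470269 on the plus strand and Gch1 at chr14:47189414-47189663 on the minus strand.
Ass1: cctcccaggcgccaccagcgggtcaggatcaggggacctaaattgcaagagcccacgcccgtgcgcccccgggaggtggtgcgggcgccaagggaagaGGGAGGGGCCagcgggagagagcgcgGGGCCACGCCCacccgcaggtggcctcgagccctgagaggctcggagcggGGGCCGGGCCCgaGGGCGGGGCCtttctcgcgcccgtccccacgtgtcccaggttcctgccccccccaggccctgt
Gch1: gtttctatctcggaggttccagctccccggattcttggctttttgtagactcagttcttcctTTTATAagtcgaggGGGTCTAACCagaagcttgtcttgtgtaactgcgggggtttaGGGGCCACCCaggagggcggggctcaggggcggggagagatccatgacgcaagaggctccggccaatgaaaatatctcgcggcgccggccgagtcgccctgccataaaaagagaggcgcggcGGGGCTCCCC

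Both strands were searched for a loose NF-kB motif (GGG and CC with any 5 bases between), an interferon response motif (GAAA repeated after any 2 bases) and a C/EBP motif (TTGC and AA with any 2 bases between). The AP-1 motif was TGANTCA. For NFAT its core letters TGGAAA were used, and for the TATA box the letters TATAAA. The Ass1 window held 6 matches, all to the NF-kB letters and some of them overlapping, and the Gch1 window held 5 of those, counted on both strands, and 1 to TATAAA on the reverse strand. Of 32851 promoter windows of that length, 45.8% held the loose NF-kB letters, 12.4% TATAAA, 18.6% the NFAT core, 9.56% the C/EBP, 6.75% the AP-1 and 2.98% the interferon response letters. The matches are descriptions of letters in these windows.

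Whether the EGTA and Cd14 effects grew with time was tested as the difference between the late times (12 and 24 h) and the early ones (2, 4 and 6 h). For EGTA this was -1.74 for Nos2, -1.19 for Arg1, -0.46 for Arg2 and -1.24 for Slc7a2, with adjusted p-values of 0.268, 0.0819, 0.139 and 0.055. None of the 4 was called by limma, nor was any other gene (0%), although all 4, and 819 of 6929 genes, had an unadjusted p under 0.05. For Cd14-deficient cells it was -0.996, -0.51, -0.33 and -0.50 in the same order, with adjusted p-values from 0.235 to 0.504. Of the 4 genes 3 had an unadjusted p under 0.05, and 0.0433% of genes were called. On the probe sets used, the EGTA difference was lower late for each gene, but none of the 4 passed the adjustment over all genes tested. The second Arg2 probe set, 1438841_s_at, gave a late minus early EGTA value of only -0.17 (adjusted p = 0.738 in a limma fit over all probe sets). In that fit Slc7a2 gave -0.93 on 1422648_at and -1.38 on 1450703_at, not called either (adjusted p of 0.149 and 0.0552).

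The size of the LPS response itself was compared by setting each condition's 5 LPS arrays against its own unstimulated array. The EGTA response differed from the wild type response by -1.81 for Nos2, -0.51 for Arg1, -0.14 for Arg2 and -0.98 for Slc7a2, and 0 of the 4 were called by limma, with 1.66% of 7056 genes called. Each of these values rests on 1 unstimulated array per condition. Their unadjusted p-values ran from 0.0563 to 0.51, so 0 were under 0.05. For Cd14-deficient cells the values were -2.50, -0.34, 0.50 and -0.38, with 0 of 4 called and 0.156% of genes called, while Nos2 and Arg2 had unadjusted p-values of 0.0135 and 0.0304. For Arg1 the 95% interval of the Cd14 value was -1.36 to 0.67, beside the difference of -1.50 already seen without LPS.

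The other probe sets changed this comparison for Arg2. On 1438841_s_at, whose unstimulated levels differed more, the Arg2 response was larger with EGTA than in wild type cells, by 1.01 ± 0.18, the opposite sign to 1418847_at, and this was called in a fit over all probe sets (adjusted p = 0.0171). The Cd14 value there was 0.93 ± 0.18 and was not called (adjusted p = 0.0815). These data therefore give no settled direction for the Arg2 response with EGTA. For Slc7a2 the signs held, with EGTA values of -0.79 on 1422648_at and -0.75 on 1450703_at and Cd14 values of -0.37 and -1.19, and these 4 were not called (adjusted p from 0.377 to 0.888).

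At single times against no LPS, 3 of the 4 genes were called at 2 h (41.3% of genes), and all 4 at 4 h (60.8%), 6 h (60%), 12 h (56.6%) and 24 h (52.2%). Nos2 had its largest mean rise at 6 h, 4.56 ± 0.56, and Arg2 at 2 h, 1.83 ± 0.14. Slc7a2 was up by 2.70 ± 0.27 at 6 h and 2.68 ± 0.27 at 12 h, and Arg1 was down most at 12 h, -4.97 ± 0.24.

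Around these genes, 39 others that take up or use arginine and its products were listed, of which 31 had a probe set of their own and 23 were tested. LPS raised 4 and lowered 13 of them, where it raised 27.3% and lowered 34.7% of all genes, with a median of -0.22 against -0.05 over all genes. Gch1 rose by 2.18 ± 0.11 (adjusted p = 2.5e-10), from 9.48 without LPS to between 11.30 and 12.09 in wild type cells, and its differences of -0.21 with EGTA and -0.17 without Cd14 were not called. The others that rose, named because they were few, were the transporter genes Slc3a2 and Slc7a6 and Dhps, which acts in the step that uses spermidine on a translation factor.

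The 3 creatine genes all fell with LPS, among them Ckb, the brain-type creatine kinase, by 1.26. Odc1, which turns ornithine into the polyamine putrescine, fell by 0.62 ± 0.08, and of 8 tested polyamine genes 5 fell and 1 rose. Of 4 tested urea cycle and proline genes 3 fell, including Glul, glutamine synthetase, at -1.16 ± 0.15, and Aldh18a1, which makes the proline and ornithine precursor from glutamate, at -0.92 ± 0.21. Over all genes LPS lowered 34.7% and raised 27.3%, and these short lists were not tested as sets. Asl, which finishes arginine synthesis after Ass1, stood at 0.12 and was not called (adjusted p = 0.334). Slc7a1, the other common arginine transporter of the CAT family, stayed between 4.48 and 6.38 on the 18 arrays and was too dim to be tested.

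**Figure D4:**
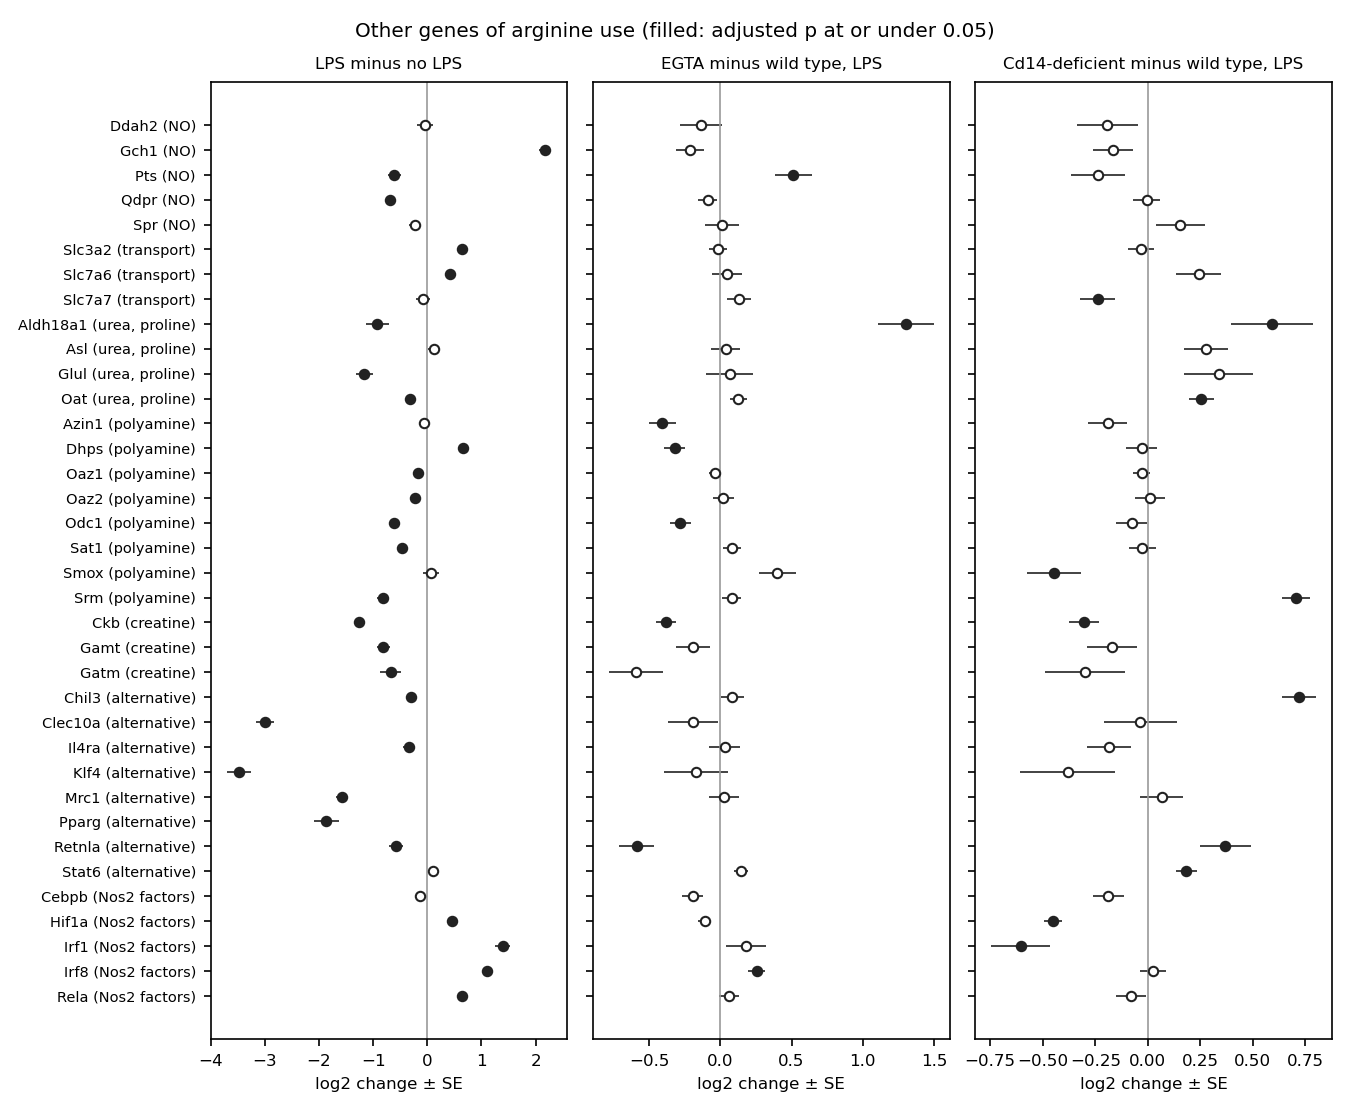
Log2 change with its standard error (horizontal axes, a different range in each panel) of the tested genes around arginine use for LPS against no LPS, EGTA against wild type and Cd14-deficient against wild type under LPS, with filled points where the adjusted p was at or under 0.05 and the list in brackets. Gch1 stands highest under LPS at 2.18 and Klf4 lowest at -3.48, and Aldh18a1 is the rightmost point with EGTA at 1.30.

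Between conditions fewer of the 23 genes were called. With EGTA 2 rose and 4 fell, at a median of 0.01 against 0.01 over all genes, and without Cd14 3 rose and 3 fell, at -0.03 against 0.04. Cd14-deficient against EGTA cells gave 2 higher and 4 lower. Of all genes, 13.6%, 29.7% and 31.3% were called in these comparisons, beside 6 of the 23 in each. Aldh18a1 had the largest change of the 23 with EGTA, up by 1.30 ± 0.20 (adjusted p = 0.00116). Under LPS it read 8.48 to 9.27 with EGTA and 6.71 to 8.46 in wild type cells. Without LPS the EGTA array was also the higher, at 9.18 against 8.84. The other riser was Pts and those that fell were Odc1 (-0.28, adjusted p = 0.0247), Azin1, Dhps and Ckb (-0.38).

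Without Cd14 the risers were Srm, Oat and Aldh18a1 (0.59, adjusted p = 0.0372) and those that fell Slc7a7, Smox and Ckb (-0.30, adjusted p = 0.00689). Pts, Azin1, Dhps, Srm, Oat, Slc7a7 and Smox are named here after their values were seen, to account for the counts.

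Of 8 genes of alternative activation that often accompany Arg1, 7 fell with LPS, at a median of -1.08, where 34.7% of all genes fell. Of the granulocyte markers 9 of 10 fell as well, at a median of -0.81, and of the macrophage markers 6 of 10 fell and 2 rose, at -0.28. The summed granulocyte intensity in wild type cells was 41831 without LPS and 15929 to 35388 under it, and the part of those cells in the falls of this list and of Arg1 was not tested. The change was -3.48 ± 0.23 for the transcription factor gene Klf4, -3.00 ± 0.16 for the lectin gene Clec10a, -1.87 ± 0.23 for Pparg and -1.58 ± 0.10 for the mannose receptor gene Mrc1. Pparg passed the filter only through the wild type and Cd14-deficient arrays without LPS and the Cd14-deficient array of 2 h. It lay below the array median on all other arrays and was too dim to be tested between conditions. Klf4 was low from 2 h on (7.60 in wild type cells, from 10.69), while Clec10a followed a slower course, with 9.84, 8.20, 7.52, 6.65 and 6.15 from 10.55.

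Without Cd14, where Arg1 fell, 3 of the 7 tested genes of this list rose, against 17.1% of all genes. They were Chil3, Retnla and Stat6, named after their values were seen. The other 4 were not called, Klf4 among them at -0.38 (adjusted p = 0.225). With EGTA 1 of 7 fell, Retnla, against 6.22% of all genes. The difference between Arg1 and the list was not tested.

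Of 5 tested genes for factors known to act on the Nos2 promoter, 4 rose with LPS, where 27.3% of all genes rose. Irf1, an interferon response factor, rose by 1.39 ± 0.14 and Irf8 by 1.09 ± 0.06. Without Cd14, Irf1 fell by 0.60 ± 0.14 against wild type (adjusted p = 0.00629), and it read 10.61, 10.64, 10.32, 10.10 and 10.10 there against 11.64, 11.48, 11.12, 10.70 and 9.86. Hif1a, named after its value was seen, was the other of 2 that fell without Cd14, where 12.6% of all genes fell. With EGTA Irf1 differed by 0.18 (adjusted p = 0.452) and Irf8 alone rose, by 0.25, where 7.4% of all genes rose. Without Cd14, Irf1 and Nos2 were both below wild type from 2 to 12 h, and at 24 h Irf1 was above it and Nos2 below it. Without LPS, Irf1 read 8.95 in Cd14-deficient, 9.29 in wild type and 10.03 in EGTA cells. Whether Irf1 has a part in the Nos2 levels was not tested.

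Over the 18 arrays, which share LPS time and condition, Nos2 and Slc7a2 had a Pearson r of 0.843, Arg2 and Slc7a2 0.696, Nos2 and Arg2 0.485, Arg1 and Slc7a2 -0.590 and Nos2 and Arg1 -0.248. The 3 of 7052 other genes most like Nos2 were Atl3 (r = 0.924), Slamf7 (0.922) and Pkp4 (0.922). Those most like Arg1 were Ptprs (0.946), Dgat1 (0.935) and Rcbtb2 (0.929), and most like Slc7a2 were Acpp (0.962), Tnfrsf1b (0.958) and Inhba (0.957). Arg2 was nearest to the chemokine gene Cxcl1 (0.918), then Ampd3 (0.880) and Phldb1 (0.878). An r above 0.9 was reached by 35 genes for Slc7a2, 12 for Nos2, 9 for Arg1 and 1 for Arg2, so Arg2 had the fewest close neighbours of the 4.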

How the data were processed

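RNA from 18 samples of dendritic cells was labelled and hybridised to Affymetrix mouse arrays of 22690 probe sets. The deposited values are linear intensities, made by the authors with MAS5 per the submitters' processing notes. The sources used here do not state its version or scaling target. MAS5 intensities do not carry detection calls here, so a dim level is only a bound.

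Arrays were quantile normalised and 16 was added before log2. Of the probe sets, 20393 had 1 gene, 691 several and 1606 none in the platform annotation. A gene was tested if it exceeded the median gene of its array on at least 2 fitted arrays (6929 genes for conditions under LPS, 7056 for LPS). limma 3.58.1 in R 4.3.3 (lmFit, eBayes with trend) was fitted with LPS time as a block over 15 arrays for conditions, and condition as a block over 18 for LPS, with Benjamini-Hochberg adjustment at 0.05. Fits were also run on simulated data with independent noise around a constant mean for each gene. Those data held no condition difference that changed with time, so they do not test that case. With 1 array per condition and time, the precision for a gene rests on its scatter between these arrays, moderated over genes by eBayes. Alternatives were other scalings, added values, filters and probe sets, no trend, fewer conditions, and leaving out each array or time. The fit without 2 EGTA arrays and the response fits on other probe sets were chosen after seeing the data. Members, lists and motifs were chosen with earlier results of these data known. From the lists, genes changed by at least 1 (log2) and called in any contrast are named, with Odc1, Gch1, Asl and Slc7a1 always, and the 3 genes most correlated with each member.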

Additional observations from a re-analysis of the deposited data

How the results depend on the processing

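Of 568 alternative values for 32 member results, 533 kept their direction and their side of the threshold, 22 lost the call and 11 gained one. Many could not change direction. Without the filter, without the trend or without an array outside the comparison, the estimate between conditions stays the same and only its error or adjustment moves. The alternatives outside these counts concern the Arg2 response to LPS with EGTA against wild type. That response was -0.14 and uncalled, turned to 0.05 with median centring, still uncalled, and was 1.01 and called on 1438841_s_at (adjusted p = 0.0171), an alternative chosen after seeing the data. The EGTA difference of Arg1 (-0.68) kept its size but not its call with no filter (adjusted p = 0.0614), no trend (0.0512) or only the 10 arrays of the 2 conditions (0.0656). Over the 20 fits that left out 1 array or time it ran from -0.82 to -0.44, and 10 of them ended the call. Without the EGTA arrays of 12 and 24 h, it was -0.30, and Nos2 was -1.31 (adjusted p = 0.0515).

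The Cd14 difference of Slc7a2 was called with no further scaling (-0.57), median centring (-0.50), probe set 1450703_at (-0.94), the 10 arrays alone (-0.42) and without both late EGTA arrays (-0.42, adjusted p = 0.00872), and ran from -0.52 to -0.22 leaving 1 array or time out. Cd14-deficient minus EGTA for Nos2 was called with no further scaling (-0.86, adjusted p = 0.0413), without both late EGTA arrays (-1.22) and without the EGTA 24 h array or that time, in a range from -1.08 to -0.31. For Slc7a2 it was not called on 1450703_at (0.46) or without both late EGTA arrays (0.27), and ran from 0.44 to 0.79, with the call lost without the 6 or 12 h arrays. The late minus early EGTA difference of Slc7a2 was called with no further scaling (-1.07, adjusted p = 0.0414). Where EGTA arrays were left out, the Cd14 difference of Slc7a2 from wild type stayed at -0.42 and only its SE moved. That SE was 0.19 in the reported fit, 0.13 without the EGTA 24 h array and 0.11 on the 10 arrays alone. The cause of the other changes was not tested.

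Counts over all genes moved more. EGTA against wild type called 944 genes, 456 without both late EGTA arrays and 376 to 1075 leaving 1 array or time out. Cd14-deficient against wild type called 2057, 1359 with no further scaling and 1381 to 2144 leaving 1 out, and against EGTA 2166 and 1379 to 2251. The EGTA response difference called 117, 36 with no further scaling, 761 with median centring and 76 with 64 added. The Cd14 one called 11, 20 with no further scaling and 5 with no filter. Late minus early called 0 with EGTA, 14 with no further scaling and 2 with median centring or 64 added, and 3 without Cd14, 10 with no further scaling, 5 with 1 added, 14 with 64 added and 0 with no filter (937 at an unadjusted p under 0.05 in the reported fit). Of calls, the share higher was 54.3% with EGTA, 57.6% without Cd14, 53.8% between the 2 and 44.0% for LPS; with no further scaling it was 72.0%, 22.1%, 12.1% and 19.9%, and with median centring 43.5% without Cd14, 37.2% between the 2 and 61.7% for LPS. With no further scaling the median gene moved by -0.32 with LPS and by -0.17 between Cd14-deficient and EGTA cells. LPS time is a block in each fit between conditions, and the labels give no replicate numbers to pair by.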
